A study of Mus musculus with 2 samples.

Results

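The BCL2 family members Bax, Bak1, Bbc3, Pmaip1, Bcl2l11, Bid, Bad, Bcl2, Bcl2l1 and Mcl1 were followed in spatial transcriptomes of mouse intestine after irradiation. They were chosen by symbol as a gene family, by a rule that uses no measured value. All 10 are present, among 54658 symbols in the deposited tables, and all 10 passed the minimum of 200 counts over both sections that 14516 genes passed. There was 1 section from Dpf2 KO mice and 1 from WT mice, and both had received X-rays at 10 Gy. Frozen tissue was cut at 10 µm, and counts were deposited per gene and per barcoded array position under tissue. Dpf2 encodes a subunit of the BAF chromatin remodelling complex. With 1 section per genotype, and no unirradiated section analysed here, no test between genotypes was possible and no p-value is given. The labels used here do not state how long after irradiation tissue was taken, from which gut segment, in which tissue Dpf2 was deleted, or from how many animals.

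The KO-labelled section held 88056 barcodes with 89754886 counts, at a median of 932 counts per barcode, and the WT-labelled section held 50970 barcodes with 39824941 counts, at a median of 721. Dpf2 itself had 2333 counts, or 25.99 counts per 1000000 (CPM), in the KO-labelled section and 940 counts, or 23.6 CPM, in the WT-labelled section. The transcript count therefore did not mark the KO label, and the labels do not say which part of the gene was deleted. The sections share 45557 barcode names, all at the same array positions. Intestinal epithelial markers were present in both sections, but in unlike amounts: the 16 enterocyte genes took 0.937% to 9.09% of the counts of a square of 20 by 20 position units in the KO-labelled section, against 0% to 2.63% in the WT-labelled section. Paneth cell genes took 0.0805% to 4.96% of the counts of a square in the KO-labelled section and 0.517% to 28.4% in the WT-labelled section. All 16 enterocyte genes were at least 2-fold higher and all 10 Paneth cell genes at least 2-fold lower in the KO-labelled section. The part of this tissue makeup in the differences below was not tested, and in sums over tissue fewer cells of a type and less RNA per cell cannot be told apart.

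The BCL2 family decides whether the outer mitochondrial membrane is breached. Bax and Bak1 form the pores that release cytochrome c, the BH3-only proteins Bbc3 (PUMA), Pmaip1 (NOXA), Bcl2l11 (BIM), Bid and Bad either activate these effectors or occupy their guardians, and Bcl2, Bcl2l1 (BCL-XL) and Mcl1 hold the effectors in check. In the irradiated intestine, p53 acts on this switch through targets such as Bbc3, Pmaip1 and Bax, and crypt cells are the classic site of radiation apoptosis.

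The start regions of the 2 effector genes are shown because these genes differed in opposite directions between the sections. RefSeq windows on GRCm38.p6, from 250 bases before to 50 bases after an annotated gene start, were used for 9 of the 10 members. No window was used for Pmaip1, so its start region was not searched. The Bax window lies at chr7:45466849-45467148 on the minus strand, and the Bak1 window at chr17:27028578-27028877 on the minus strand. Both are written 5′ to 3′, and capitals mark a match to the p53 half-site consensus, searched on both strands.
Bax: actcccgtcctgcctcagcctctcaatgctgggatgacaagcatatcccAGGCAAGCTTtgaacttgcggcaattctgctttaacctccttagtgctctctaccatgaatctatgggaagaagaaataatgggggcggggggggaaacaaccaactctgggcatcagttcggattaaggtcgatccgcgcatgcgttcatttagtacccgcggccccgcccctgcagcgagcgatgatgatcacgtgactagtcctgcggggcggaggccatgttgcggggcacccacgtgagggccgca
Bak1: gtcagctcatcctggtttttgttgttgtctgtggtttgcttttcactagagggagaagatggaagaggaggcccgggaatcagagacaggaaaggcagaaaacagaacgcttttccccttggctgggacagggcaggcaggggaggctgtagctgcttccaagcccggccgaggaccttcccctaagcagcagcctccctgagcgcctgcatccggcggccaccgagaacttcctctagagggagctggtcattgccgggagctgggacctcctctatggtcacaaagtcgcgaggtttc
Of the 9 members with a window, 1 held a match, namely Bax, where it starts 201 bases before the gene start. Counted by gene in the same way, 9.55% of 27025 genes held a match in any of their windows. A match was also held by 8.36% of all 32851 RefSeq windows of this length, so such a match is common and describes letters only.

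Over the whole sections the members split in both directions. Pmaip1 and Bak1 were at least 2-fold higher in the KO-labelled section (2 of 10 members, against 15.7% of all genes tested), and Bcl2l11, Bax and Bcl2 at least 2-fold lower (3 of 10, against 19.7%). The median log2 ratio of KO over WT was -0.04 for the 10 members and -0.18 for all genes tested. The summed members took 873 CPM in the KO-labelled section and 776 CPM in the WT-labelled section. When each section was divided by position into 4 blocks of about equal barcode number, the blocks of the sections did not overlap for 6 members, against 74.3% of all genes. KO blocks lay above all WT blocks for 3 members (31.6% of all genes) and below all WT blocks for 3 (42.8%). Such separation was thus the rule over the whole transcriptome, and the members' count is no more frequent than that background. Intervals given here are exact, at 95%, and cover counting error only, not the spread between animals.

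The 2 pore-forming effectors differed in opposite directions. Bak1 (ENSMUSG00000057789, chr17:27019812-27028627) had 21637 counts, or 241 CPM, in the KO-labelled section and 3956 counts, or 99.3 CPM, in the WT-labelled section. Its blocks lay at 220, 241, 245 and 261 CPM in the KO-labelled section and at 93.9, 94.6, 98.3 and 109 CPM in the WT-labelled section, and its log2 ratio of KO over WT was 1.28 (interval 1.23 to 1.33). All 4 KO blocks were thus far above the WT blocks. Bax (ENSMUSG00000003873, chr7:45461695-45466903) had 3347 counts, or 37.3 CPM, in the KO-labelled section and 4148 counts, or 104 CPM, in the WT-labelled section. Its blocks lay at 36.2, 37.5, 37.9 and 37.9 CPM in the KO-labelled section and at 101, 104, 106 and 106 CPM in the WT-labelled section, with a log2 ratio of -1.48 (-1.55 to -1.42). The blocks of each section were nearly level for Bax, so at this coarse scale every block showed a difference of like size.

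**Figure D1:**
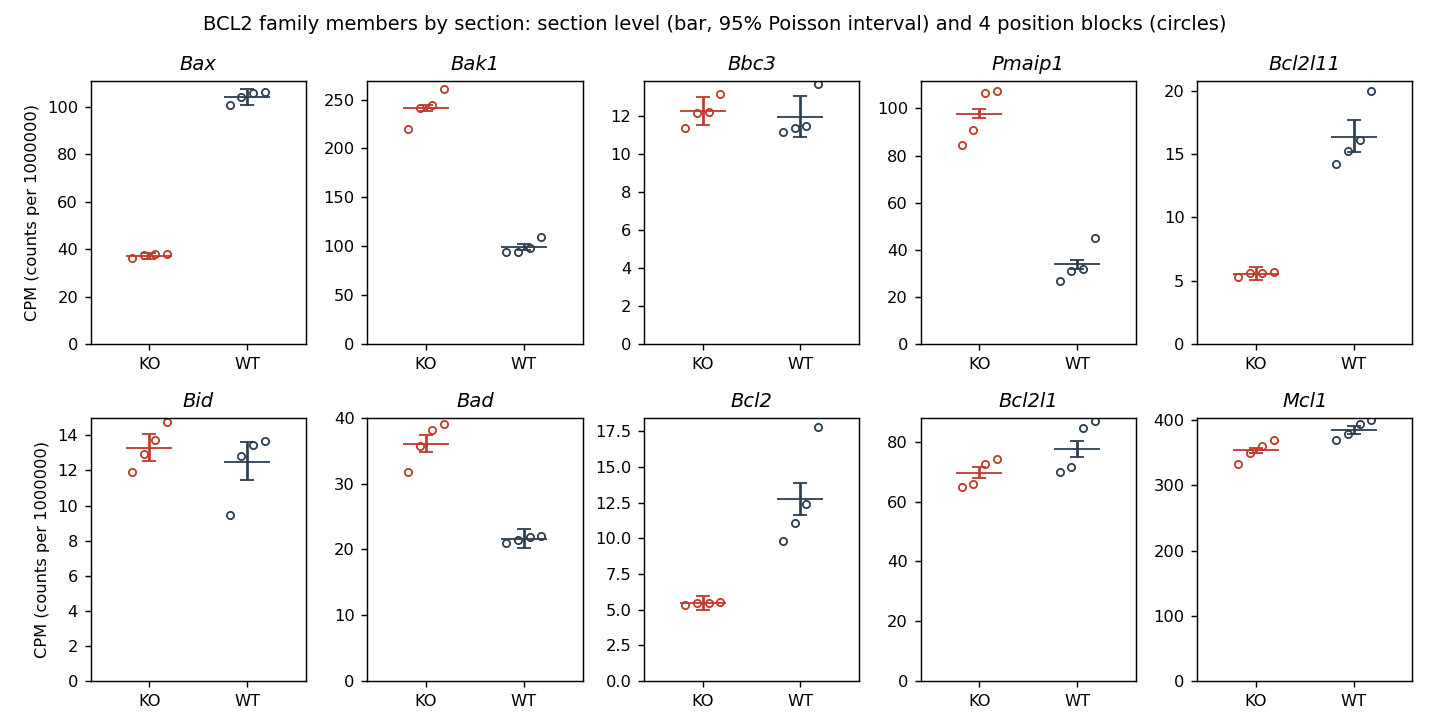
Level of each BCL2 family member in CPM on a linear axis from 0, with the KO-labelled section left and the WT-labelled section right in each panel. Bars are the section level with its 95% Poisson interval and circles are the 4 blocks; Bak1, Pmaip1 and Bad have all KO circles above the WT circles, and Bax, Bcl2l11 and Bcl2 all below.

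Among the 5 BH3-only members, Pmaip1 was the one at least 2-fold higher and Bcl2l11 the one at least 2-fold lower. Pmaip1 (ENSMUSG00000024521, chr18:66458604-66465558), whose protein chiefly binds and destabilises MCL1, had 8777 counts, or 97.8 CPM, in the KO-labelled section and 1350 counts, or 33.9 CPM, in the WT-labelled section. Its blocks lay at 84.4, 90.7, 106 and 108 CPM in the KO-labelled section and at 26.8, 31.0, 32.1 and 44.9 CPM in the WT-labelled section, and the log2 ratio was 1.53 (1.45 to 1.61). This was the highest ratio among the members. Bcl2l11 (ENSMUSG00000027381, chr2:128126038-128162547), whose protein BIM binds all the guardians, had 498 counts, or 5.55 CPM, in the KO-labelled section and 652 counts, or 16.4 CPM, in the WT-labelled section. Its blocks lay at 5.33 to 5.66 CPM in the KO-labelled section and at 14.2 to 20.02 CPM in the WT-labelled section, and its log2 ratio of -1.56 (-1.73 to -1.39) was the lowest of the members.

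The other BH3-only members differed less. Bad (ENSMUSG00000024959, chr19:6941861-6951905), which in its unphosphorylated form binds BCL2 and BCL-XL, had 3241 counts, or 36.1 CPM, in the KO-labelled section and 861 counts, or 21.6 CPM, in the WT-labelled section. Its log2 ratio was 0.74 (0.63 to 0.85), and its blocks, 31.8 to 39.1 CPM in the KO-labelled section and 21.0 to 22.1 CPM in the WT-labelled section, did not overlap. Bbc3 (ENSMUSG00000002083, chr7:16308398-16318334), the p53 target known for its role in crypt apoptosis after irradiation, had 1099 counts, or 12.2 CPM, in the KO-labelled section and 475 counts, or 11.9 CPM, in the WT-labelled section. The interval of its log2 ratio of 0.04 runs from -0.12 to 0.20 and so includes 0, and the blocks of the sections overlapped. Bid (ENSMUSG00000004446, chr6:120893119-120917062), which caspase 8 cleaves to link death receptors to mitochondria, had 1194 counts, or 13.3 CPM, in the KO-labelled section and 498 counts, or 12.5 CPM, in the WT-labelled section. Its log2 ratio was 0.09 (-0.06 to 0.24), again with overlapping blocks, and the sign of both ratios depended on the scaling.

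Of the 3 anti-apoptotic members, only Bcl2 was past 2-fold at section level. Bcl2 (ENSMUSG00000057329, chr1:106538176-106714290) had 488 counts, or 5.44 CPM, in the KO-labelled section and 507 counts, or 12.7 CPM, in the WT-labelled section. Its blocks lay at 5.32, 5.44, 5.46 and 5.52 CPM in the KO-labelled section and at 9.80, 11.04, 12.4 and 17.8 CPM in the WT-labelled section, and the log2 ratio was -1.23 (-1.41 to -1.05). The WT blocks did not overlap the KO blocks but spread widely, which is taken up with the B cell-rich squares below. Mcl1 (ENSMUSG00000038612, chr3:95656944-95663179), a short-lived protein that intestinal epithelium depends on, had 31785 counts, or 354 CPM, in the KO-labelled section and 15368 counts, or 386 CPM, in the WT-labelled section. Bcl2l1 (ENSMUSG00000007659, chr2:152758732-152833803) had 6264 counts, or 69.8 CPM, in the KO-labelled section and 3090 counts, or 77.6 CPM, in the WT-labelled section. Their log2 ratios were -0.12 (-0.15 to -0.10) and -0.15 (-0.22 to -0.09), their blocks overlapped between the sections, and both ratios turned slightly positive with scaling by the median of ratios. RefSeq places other genes over Bak1 (Ggnbp1), Bcl2l11 (Acoxl), Bad (Gpr137), Bcl2l1 (Cox4i2), Bid and Bcl2, and reads that such pairs share cannot be told apart, since no source used here states strand-specific counting.

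Ratios of 2 members within a section do not depend on how the sections are scaled. Counts were not divided by transcript length, so these ratios were compared between sections and not read as molecule ratios. Bak1 over Bax was 6.46 (6.23 to 6.71) in the KO-labelled section and 0.954 (0.913 to 0.996) in the WT-labelled section, and the blocks spanned 5.80 to 6.95 in the KO-labelled section and 0.893 to 1.03 in the WT-labelled section. The summed anti-apoptotic counts over the summed pro-apoptotic counts came to 0.968 (0.955 to 0.982) in the KO-labelled section and 1.59 (1.55 to 1.63) in the WT-labelled section, with blocks from 0.915 to 0.999 in the KO-labelled section and from 1.498 to 1.68 in the WT-labelled section. Both ranges stood apart, but no background over other genes was taken for these ratios. Bak1 held 21637 of the 39793 pro-apoptotic counts in the KO-labelled section and 3956 of 11940 in the WT-labelled section. The summed ratio thus leans on this gene and was not taken without it, so it does not show a shift shared by the family. Mcl1 carried most of the anti-apoptotic sum and made up 40.6% of all member counts in the KO-labelled section, against 49.7% in the WT-labelled section, while Bak1 made up 27.6% in the KO-labelled section, against 12.8% in the WT-labelled section. Mcl1 over Pmaip1, a guardian and its dedicated antagonist, was 3.62 (3.54 to 3.71) in the KO-labelled section and 11.4 (10.8 to 12.0) in the WT-labelled section. Bcl2 over Bcl2l11, by contrast, was 0.980 (0.863 to 1.11) in the KO-labelled section and 0.778 (0.691 to 0.874) in the WT-labelled section, with both partners lower in the KO-labelled section.

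**Figure D2:**
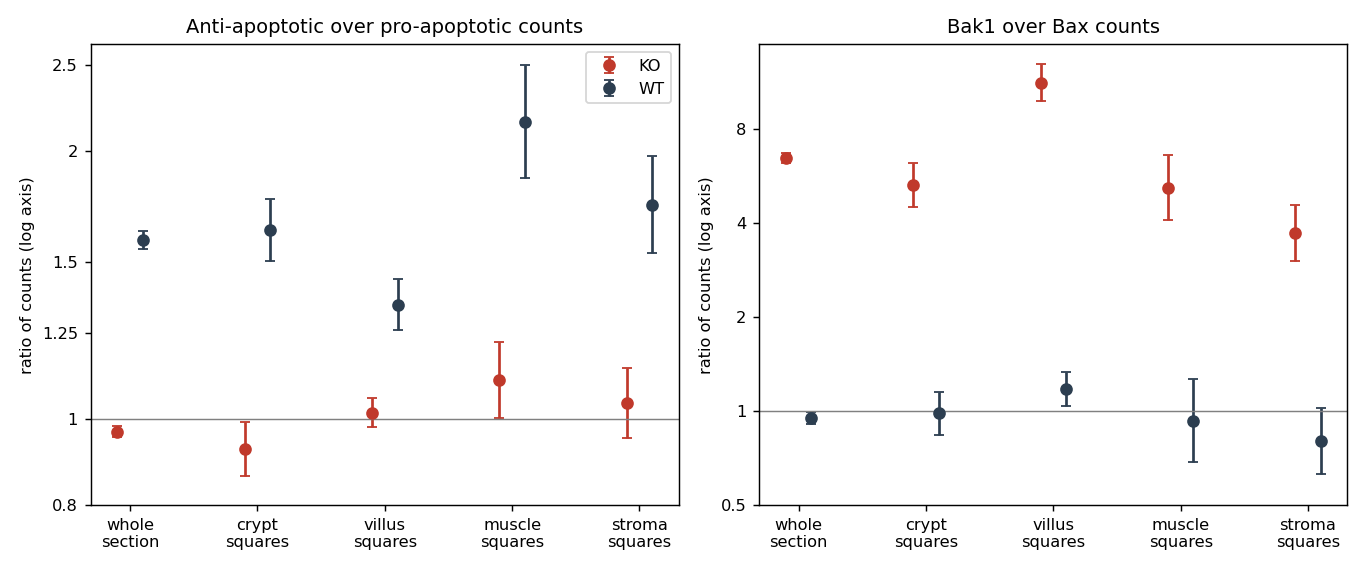
Ratio of summed anti-apoptotic to summed pro-apoptotic counts (left) and of Bak1 to Bax counts (right), on log axes, for the whole section and for marker-rich squares, with KO drawn left of WT and 95% counting intervals. The Bak1 to Bax ratio lies between 3.71 and 11.2 in the KO-labelled section and between 0.804 and 1.18 in the WT-labelled section.

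To set like tissue beside like, squares of 20 by 20 position units were ranked within each section by the share of their counts from a marker list, and the top 10% were taken as crypt (Paneth cell list), villus (enterocyte list), muscle (smooth muscle list) or stroma (fibroblast and matrix list). Squares in more than 1 of these 4 groups were left out. This gave 115 crypt, 210 villus, 57 muscle and 67 stroma squares of 2100 in the KO-labelled section and 96, 127, 52 and 52 of 1305 in the WT-labelled section. A square holds many cells of several types, and like-named squares were not alike in content: Paneth cell genes took 1.98% of the counts in KO crypt squares and 20.04% in WT crypt squares, and enterocyte genes took 6.51% in KO villus squares and 0.308% in WT villus squares. KO crypt squares also held 2.24% enterocyte counts, against 0.0226% in WT crypt squares. Adipocyte genes took 1.30% and stroma genes 0.220% of counts in KO stroma squares, against 0.00098% and 0.260% in WT stroma squares. Paneth cell genes took 9.73% and smooth muscle genes 0.281% in WT muscle squares, against 0.767% and 0.758% in KO muscle squares. WT villus squares held 6.03% Paneth cell counts. The names thus give the list by which squares were ranked, not their main content.

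Within these squares the effectors kept their opposite directions. Bak1 had 214 CPM in KO and 69.5 CPM in WT crypt squares, a log2 ratio of 1.62 (1.44 to 1.81), and 261 CPM in KO and 134 CPM in WT villus squares, a log2 ratio of 0.96 (0.83 to 1.10). In muscle and stroma squares its log2 ratios were 1.48 and 0.91. Bak1 was thus higher in the KO-labelled section in all 4 kinds of square. Bax had 40.5 CPM in KO and 70.6 CPM in WT crypt squares, a log2 ratio of -0.80 (-1.07 to -0.53), and 23.2 CPM in KO and 113 CPM in WT villus squares, a log2 ratio of -2.29 (-2.52 to -2.06). In muscle and stroma squares its log2 ratios were -0.99 and -1.29. The Bak1 to Bax ratio was accordingly most unlike in villus squares, at 11.2 (9.86 to 12.9) in the KO-labelled section and 1.18 (1.04 to 1.34) in the WT-labelled section.

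Among the BH3-only members, Pmaip1 and Bad were higher and Bcl2l11 lower in the KO-labelled section in all 4 kinds of square. Pmaip1 had 177 CPM in KO and 70.1 CPM in WT villus squares, 51.4 CPM in KO and 20.1 CPM in WT crypt squares, and log2 ratios of 1.34, 1.35, 1.38 and 0.90 in villus, crypt, muscle and stroma squares. Bad had log2 ratios from 0.53 to 0.83, and its intervals in muscle and stroma squares included 0. Bcl2l11 had log2 ratios of -2.27 (-2.88 to -1.68) in villus and -0.62 (-1.31 to 0.05) in crypt squares, and the crypt interval reached past 0. Bid and Bbc3, level at section scale, had log2 ratios of 1.13 (0.54 to 1.74) and 0.74 (0.12 to 1.37) in crypt squares. These rest on 74 and 37 counts of Bid and on 58 and 38 counts of Bbc3 in KO and WT crypt squares, and with the reduced total described below they were 0.61 (0.02 to 1.22) for Bid and 0.22 (-0.39 to 0.85) for Bbc3. Their ratios of -0.28 and -0.16 in villus squares had intervals that include 0.

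Bcl2 was the anti-apoptotic member that varied most by kind of square. It had 2.98 CPM in KO and 14.5 CPM in WT villus squares, a log2 ratio of -2.28 (-2.95 to -1.63), but 8.34 CPM in KO and 8.05 CPM in WT crypt squares, a log2 ratio of 0.05 (-0.65 to 0.75) on 36 and 38 counts. The difference in Bcl2 at section level was thus not seen in crypt squares. Its intervals also included 0 in muscle squares, at -0.10 (-1.15 to 1.02), and in stroma squares, at -0.62 (-1.60 to 0.39). Mcl1 had 287 CPM in KO and 277 CPM in WT crypt squares and 441 CPM in KO and 424 CPM in WT villus squares, with intervals of both ratios that include 0. In muscle and stroma squares Mcl1 was lower in the KO-labelled section, with log2 ratios of -0.35 (-0.52 to -0.18) and -0.49 (-0.65 to -0.33), and in proliferating, neutrophil-rich, B cell-rich and regenerating squares, described further on, its log2 ratios lay between -0.49 and -0.39. Bcl2l1 had 51.0 CPM in KO and 47.7 CPM in WT crypt squares, and its largest difference stood in stroma squares, at 54.1 CPM in KO and 88.7 CPM in WT, a log2 ratio of -0.71 (-1.06 to -0.36).

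The background of each kind of square was taken over genes with 200 or more counts there, a minimum that 6 members passed in crypt and in villus squares, 3 in muscle squares and 4 in stroma squares. Among those passing, crypt squares had 2 members at least 2-fold higher in the KO-labelled section (29.7% of genes) and 0 at least 2-fold lower (5.75%), and villus squares had 1 higher (19%) and 1 lower (28.3%). Muscle squares had 1 higher (23.2%) and 0 lower (7.9%), and stroma squares 0 higher (22.3%) and 1 lower (8.71%). Bid in crypt squares, Bcl2l11 and Bcl2 in villus squares, Pmaip1 and Bcl2l11 in muscle squares and Bid and Bcl2l11 in stroma squares were also past 2-fold, on fewer than 200 counts, and Bid in stroma squares took the opposite sign with squares of 10 units and with the top 20% of squares. The direction shared by all 4 kinds of square, higher for 3 members and lower for 2, was shared by 27.1% and 22.7% of the 14516 genes. The median log2 ratio in crypt squares was 0.42 for the members and 0.54 for all genes, beside a Paneth cell share of 20.04% of the WT total there. With the Paneth cell, enterocyte, adipocyte, immunoglobulin and haemoglobin genes left out of the total, the crypt log2 ratios were 1.11 for Bak1, 0.84 for Pmaip1, 0.31 for Bad, -1.32 for Bax, -1.13 for Bcl2l11 and -0.47 for Bcl2, while Mcl1 and Bcl2l1, at -0.46 and -0.42, had turned negative. With that total, 1 of the 10 members was at least 2-fold higher and 2 were at least 2-fold lower in crypt squares, so the direction of the crypt counts rests on the scaling.

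**Figure D3:**
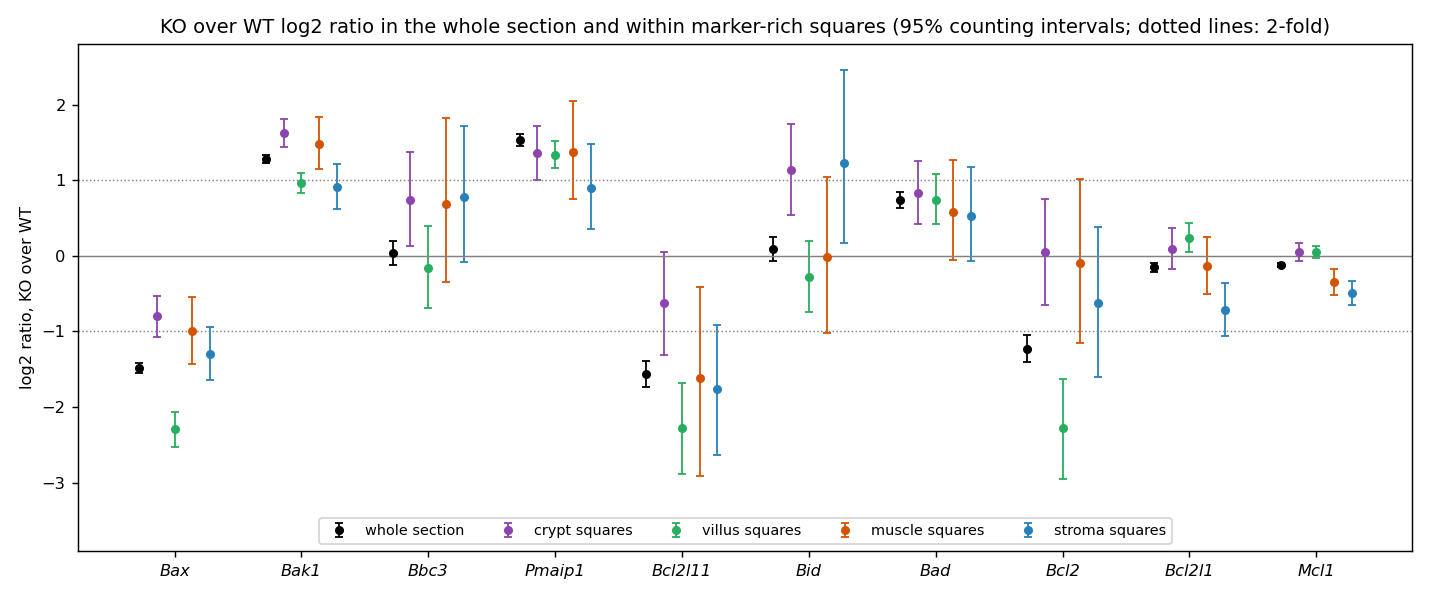
Log2 ratio of KO over WT for each member in the whole section and in crypt, villus, muscle and stroma squares, with 95% counting intervals and dotted lines at 2-fold. Bak1, Pmaip1 and Bad lie above 0 and Bax and Bcl2l11 below 0 in all 4 kinds of square, while Bcl2 is near 0 in crypt squares and -2.28 in villus squares.

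Set against the rest of its own section, Pmaip1 was the member that marked villus squares. It had 177 CPM in villus and 87.3 CPM in other squares of the KO-labelled section, a log2 ratio of 1.02 (0.95 to 1.10), where 1.23% of genes were at least 2-fold higher. In the WT-labelled section it had 70.1 CPM in villus and 29.7 CPM in other squares, a log2 ratio of 1.24 (1.04 to 1.43), against 1.08% of genes. No other member was 2-fold higher in villus squares of either section. Bax had 23.2 CPM in villus and 39.2 CPM in other squares of the KO-labelled section, a log2 ratio of -0.76 (-0.95 to -0.57). It had 113 and 103 CPM in the WT-labelled section, a log2 ratio of 0.14 (-0.01 to 0.27). The median over all genes went the same ways, at -0.42 in the KO-labelled section and 0.09 in the WT-labelled section. In WT crypt squares all 10 members were lower than in other squares, with a median log2 ratio of -0.64. The median for all genes was -0.50, so a lower level there was also the commoner direction over all genes.

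All squares of a section were also divided into 10 equal bins by their enterocyte share. The highest KO bin held the same 210 squares as the KO villus squares. The highest WT bin held 130 squares, nearly those of the 127 WT villus squares. The highest bins are thus no second observation, and the other bins show the course toward them. In the KO-labelled section Pmaip1 climbed at each of the 9 steps, with 42.1 CPM in the lowest and 177 CPM in the highest bin. In the WT-labelled section it had 21.1 CPM in the lowest and 68.7 CPM in the highest bin. Pmaip1 was thus higher toward enterocyte-rich squares in both sections, although enterocyte genes took 1.51% and 6.51% of counts in the lowest and highest KO bin and 0.00856% and 0.301% in those of WT. Bax ran opposite ways, with 43.7 CPM in the lowest and 23.2 CPM in the highest KO bin and 77.2 CPM in the lowest and 112 CPM in the highest WT bin. No background over all genes was taken for these bins. Bak1 was higher in enterocyte-rich squares of both, with 189 CPM in the lowest and 261 CPM in the highest KO bin and 63.2 CPM in the lowest and 134 CPM in the highest WT bin. The guardians Mcl1 and Bcl2l1 had 269 and 52.0 CPM in the lowest and 441 and 90.2 CPM in the highest KO bin. In WT they had 377 and 68.5 CPM in the lowest and 421 and 76.5 CPM in the highest bin, a flatter course. Bcl2 had 7.62 CPM in the lowest and 2.98 CPM in the highest KO bin. In WT it had 25.0 CPM in the lowest bin and 13.97 CPM in the highest, but the bins between lay at 9.29 to 13.00 CPM, so only the lowest WT bin stood apart. Paneth, smooth muscle and enterocyte shares move together along these bins, and their separate parts were not tested.

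**Figure D4:**
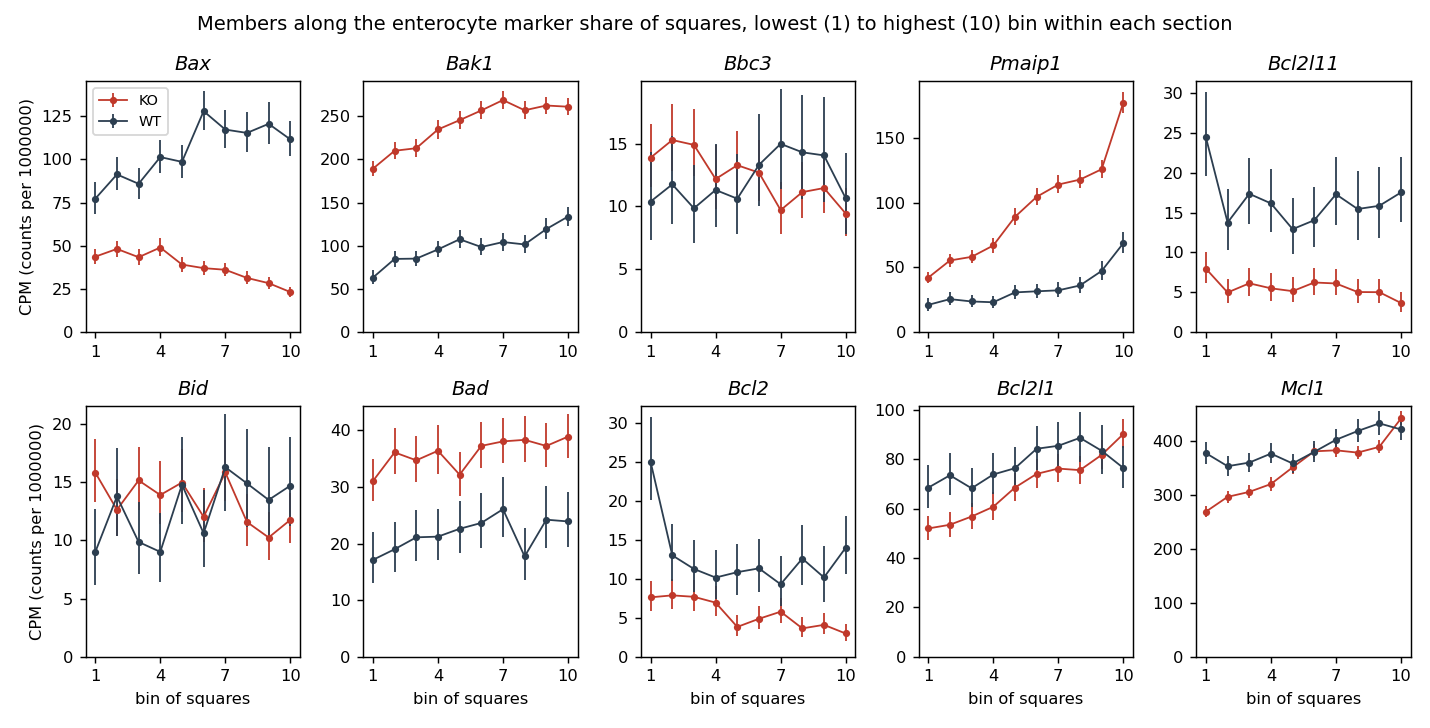
CPM of each member in bins of squares ordered by enterocyte share within each section (1 lowest, 10 highest), KO in red and WT in dark blue, with 95% Poisson intervals. Pmaip1 climbs in both sections, whereas Bax has 23.2 CPM in the highest KO bin and 112 CPM in the highest WT bin.

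Squares rich in immune, dividing or regenerating cell markers, taken as the top 10% without leaving out overlaps, held further contrasts. Bcl2 had 6.56 CPM in B cell-rich and 5.33 CPM in other squares of the KO-labelled section, a log2 ratio of 0.30 (-0.15 to 0.73). In the WT-labelled section it had 33.8 CPM in B cell-rich and 10.9 CPM in other squares, a log2 ratio of 1.63 (1.30 to 1.95), where 2.85% of genes were at least 2-fold higher. Bcl2 thus stood out in the B cell-rich squares of the WT-labelled section, in which B cell genes took 0.119% of counts, against 0.00707% in those of the KO-labelled section. Without B cell-rich squares in either section the log2 ratio of KO over WT for Bcl2 was -1.03. Bcl2l11, which limits lymphocyte survival, had 26.8 CPM in B cell-rich and 15.5 CPM in other WT squares, a log2 ratio of 0.79 (0.43 to 1.13). It was also higher in WT neutrophil-rich (0.60), regenerating (0.56) and stroma squares (0.56), so the rise was not particular to B cell-rich squares. In WT crypt, muscle and proliferating squares its log2 ratios were -0.64, -0.29 and -0.15. Mcl1, on which neutrophils depend, had 489 CPM in neutrophil-rich and 378 CPM in other squares of the WT-labelled section, a log2 ratio of 0.37 (0.29 to 0.45). Mcl1 had 350 and 354 CPM in those of the KO-labelled section, where neutrophil genes took 0.00995% of the summed counts of neutrophil-rich squares and at most 0.0923% in a single square. Its log2 ratios in regenerating and B cell-rich squares of the WT-labelled section, 0.35 and 0.33, were close to this, and over WT tiles its Spearman correlation was -0.06 with neutrophil genes, 0.52 with regenerating epithelium genes and 0.46 with B cell genes.

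Bax was higher where proliferation genes were higher, with 53.9 CPM in proliferating and 35.5 CPM in other squares of the KO-labelled section, a log2 ratio of 0.60 (0.46 to 0.74). In the WT-labelled section it had 132 and 101 CPM, a log2 ratio of 0.39 (0.25 to 0.52). The median over all genes was 0.22 in each section. The rise was not particular to Bax, since Bbc3 had 0.37 in KO and 0.51 in WT, while Bak1 had -0.01 in KO and 0.46 in WT. Nor was it particular to proliferating squares. In regenerating squares Bax had log2 ratios of 0.37 (0.20 to 0.53) in KO and 0.43 (0.28 to 0.58) in WT. Over WT tiles it ran with regenerating epithelium genes at 0.74 and with proliferating epithelium genes at 0.58, and over KO tiles at 0.29 and 0.28. In squares rich in regenerating epithelium genes such as Clu and Ly6a, 9 of 10 members were above the other squares in each section. Their median log2 ratio was 0.15 in the KO-labelled section, beside 0.04 for all genes, and 0.45 in the WT-labelled section, beside 0.17 for all genes. With both of these all-gene medians above 0, the same direction was the commoner one over all genes. Pmaip1 was the highest of them in WT, at 59.7 CPM in regenerating and 31.8 CPM in other squares, a log2 ratio of 0.91 (0.67 to 1.14), while in the KO-labelled section it had 98.4 and 97.7 CPM. Over the larger KO tiles, however, Pmaip1 ran with regenerating epithelium genes at 0.77. Across all 8 kinds of square, Bak1, Pmaip1 and Bad were higher in the KO-labelled section in each (23% of all genes tested), and Bax and Bcl2l11 lower in each (21.5%).

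Over tiles of 100 by 100 position units, the members ranged widely within a section. Pmaip1 had 22.2, 92.9 and 248 CPM as the lowest, median and highest of 92 KO tiles and 7.69, 30.0 and 105 CPM over 65 WT tiles. Bak1 had 123, 243 and 320 CPM over the KO tiles and 39.1, 98.7 and 148 CPM over the WT tiles, so single tiles of the sections overlapped for both genes. Bax had 14.4, 35.4 and 60.9 CPM over the KO tiles and 47.7, 101 and 170 CPM over the WT tiles. Bcl2 reached 97.8 CPM in 1 WT tile, against a median of 11.6 CPM over WT tiles, and lay between 1.78 and 11.2 CPM over the KO tiles.

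**Figure D5:**
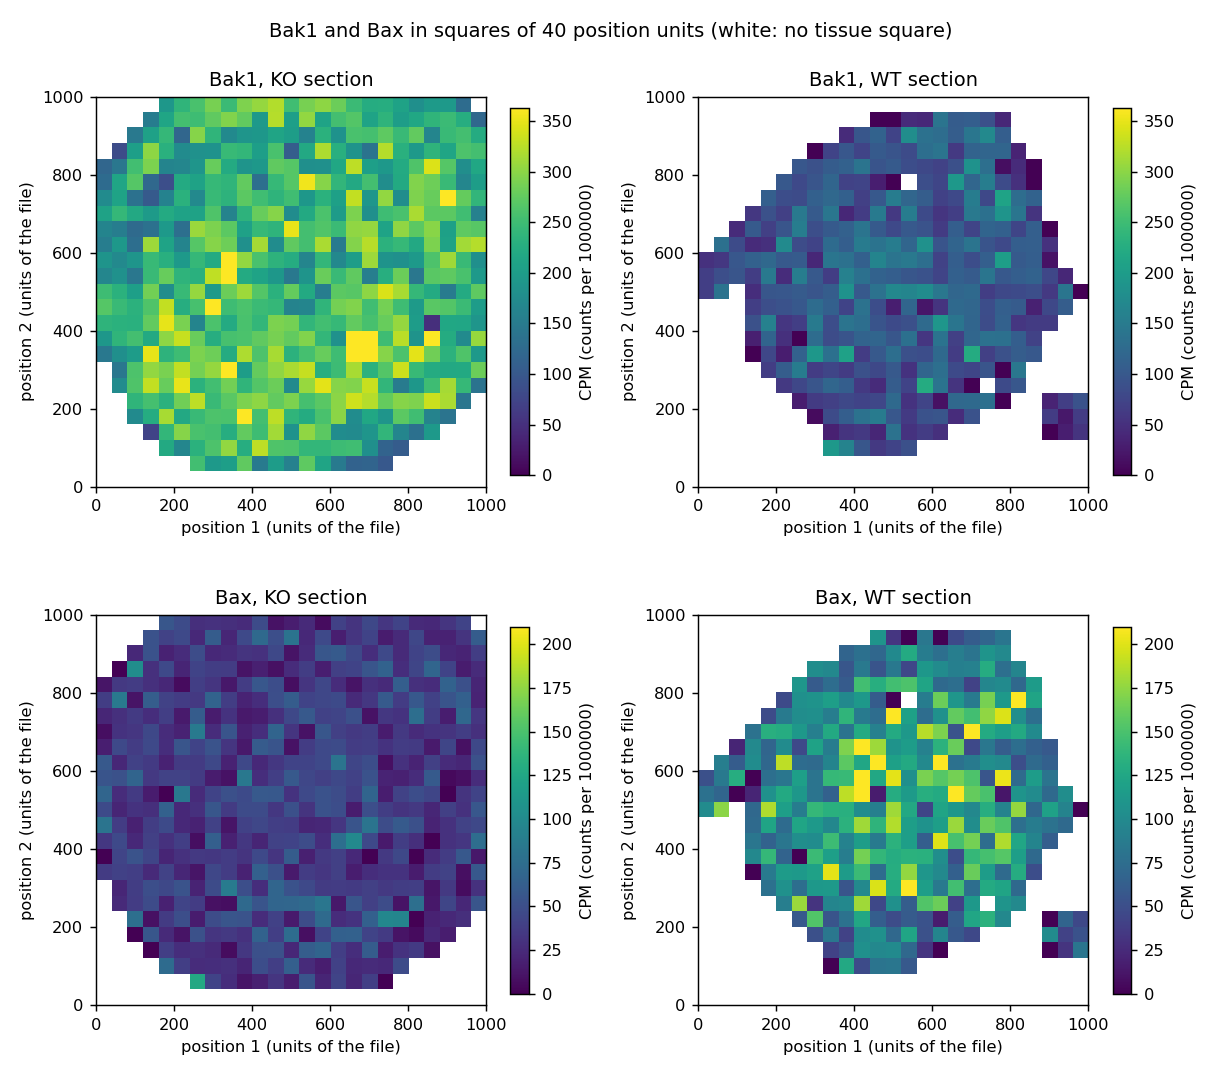
Bak1 (top) and Bax (bottom) in CPM over squares of 40 position units, KO-labelled section left and WT-labelled section right, with 1 colour scale per gene. Median tile levels were 243 CPM in KO and 98.7 CPM in WT for Bak1, and 35.4 CPM in KO and 101 CPM in WT for Bax.

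Members were also compared with each other and with other genes across tiles. Tiles of a section share a library, differ in depth and hold neighbouring tissue, so these Spearman correlations are descriptions without a p-value. In the KO-labelled section Pmaip1 ran with Mcl1 (0.84), Bcl2l1 (0.81) and Bak1 (0.64), and Bax with none of these (0.09 for Pmaip1, 0.06 for Bak1). In the WT-labelled section Bax ran with Bcl2l1 (0.65), Pmaip1 (0.54) and Bak1 (0.47). Among 8571 genes with 1000 or more counts in the KO-labelled section, those most like Pmaip1 were Dusp6 (0.96), Prr13 (0.95) and H2-D1 (0.93), Dusp6 was also first for Bcl2l1 (0.83) and second for Mcl1 (0.86), and those most like Bak1 were Vamp8 (0.76), Tapbp (0.74) and Cldn7 (0.73). For Bax they were Cd38 (0.54), Ccnd1 (0.52) and Cyba (0.49). Bbc3, a sparse gene, had Aen, another p53 target, as the most like at 0.39, a weak value. In the WT-labelled section, among 5749 genes, Bcl2l1 was most like Msln (0.81), Tnfrsf12a (0.78) and Gdf15 (0.78), Pmaip1 most like Tkt (0.84), Bax most like Prrc2a (0.81) and Bak1 most like Chd9 (0.79).

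The relatives and partners of the members also differed in both directions. Of 9 other multidomain family genes with at least 50 counts, 2 were at least 2-fold higher and 4 lower in the KO-labelled section. Bcl2l15, an intestine-enriched relative, had 62.8 CPM in the KO-labelled section and 11.5 CPM in the WT-labelled section, a log2 ratio of 2.45 (2.31 to 2.59). The other was Bcl2l14 at 1.29, named to complete the count after its value was seen. Bok, an effector-like relative of Bax and Bak1, had 31.7 CPM in the KO-labelled section and 91.2 CPM in the WT-labelled section, a log2 ratio of -1.52 (-1.59 to -1.45), close to that of Bax. The haematopoietic survival genes Bcl2a1a, Bcl2a1b and Bcl2a1d had log2 ratios of -2.73, -2.81 and -3.18. They are near-identical copies whose reads may have been split, so they are not independent entries among the 4 lower genes. In the WT-labelled section they were higher in neutrophil-rich than in other squares, with log2 ratios of 1.06, 0.90 and 1.34. Among 5 other BH3-only or BH3-like genes, Bnip3 was higher at 1.27 (1.04 to 1.51) and Bmf lower at -1.24 (-1.56 to -0.91). Bnip3 blocks overlapped between the sections, and its level of 10.8 CPM in the KO-labelled section, against 4.47 CPM in the WT-labelled section, came with 1 KO block at 19.5 CPM. Bik, Becn1 and Bnip3l had log2 ratios of -0.74, 0.66 and 0.43.

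Downstream of the mitochondria, Cycs, which encodes cytochrome c, and Apaf1, the apoptosome scaffold, were at least 2-fold higher in the KO-labelled section, with log2 ratios of 1.69 (1.65 to 1.73) and 1.06 (0.98 to 1.14). Both genes also had more CPM in villus than in other squares of the KO-labelled section, with log2 ratios of 0.67 for Cycs and 0.42 for Apaf1, beside the enterocyte excess of that section. Aifm1 and Xiap, both on chromosome X, had 0 counts in both sections and could not be assessed.

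Of 17 measured regulators of the members, a list that joins stress-response and p53 genes, 3 were at least 2-fold higher, namely the stress-response or FOXO genes Trib3 at 1.63, Ddit3 at 1.39 and Foxo3 at 1.36, and 2 lower, namely the DNA damage and p53 genes Atm at -1.24 on 112 and 117 counts and Aen at -1.20. The shares over all genes tested were 15.7% higher and 19.7% lower. Trp53 had 20.5 CPM in the KO-labelled section and 27.5 CPM in the WT-labelled section, a log2 ratio of -0.43 (-0.53 to -0.32). Its targets Mdm2 and Cdkn1a had log2 ratios of 0.06 (0.00 to 0.12) and -0.51 (-0.55 to -0.48). Of the other p53 genes of that list, named after their values were seen, Trp53inp1, Chek2, Mdm4 and Ccng1 had log2 ratios of -0.91, -0.37, -0.34 and -0.16, and Perp had 0.21. Most of these p53 genes were below 0, but so were 8308 of all 14516 genes tested, whose median was -0.18. The p53 targets among the members differed in 3 ways, with Pmaip1 higher, Bbc3 level and Bax lower in the KO-labelled section. In the ligand and receptor pathway that meets Bid, 2 of 10 genes exceeded 2-fold upward and 1 downward, beside the same shares of 15.7% and 19.7%. The death ligand gene Tnfsf10 had 26.6 CPM in the KO-labelled section and 1.71 CPM in the WT-labelled section, a log2 ratio of 3.96 (3.61 to 4.33). Tnf had 2.16 CPM in the KO-labelled section and 13.1 CPM in the WT-labelled section, a log2 ratio of -2.60 (-2.85 to -2.36), while the adaptor gene Tradd had a log2 ratio of 1.71 (1.61 to 1.81). Casp8, which cleaves BID, had a log2 ratio of -0.91 (-1.02 to -0.80), and the death receptor gene Fas one of 0.91 (0.78 to 1.04).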

How the data were processed

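Spatial counts were analysed from 2 sections. Per the labels' protocols, fresh frozen intestine was sectioned, the spot and bright-field images were aligned with BSTMatrix and BSTViewer, and spots under tissue were kept. The authors deposited whole, unnormalised counts for each gene and barcode, and the submitters' processing notes name GRCm38. The aligner, the counting tool, collapsing of molecular identifiers and the unit of the positions are not given in the sources. Counts of features with the same symbol were summed, and counts were then summed over barcodes and divided by the section total per 1000000 (CPM). CPM carry exact Poisson intervals, and log2 ratios and ratios of counts carry exact binomial intervals, at 95%. No test was run, because barcodes, squares and tiles of 1 section are not replicates. Called genes were at least 2-fold apart among genes with 200 or more counts. Squares needed 10 barcodes and 2000 counts, and tiles needed 200 barcodes. The members and gene lists were chosen with earlier results of these data known. Named were all members, per pathway list up to 5 genes with the largest absolute log2 ratio and 50 or more counts plus Trp53, Mdm2 and Cdkn1a, and the 3 genes most alike across tiles for members with 1000 or more counts. Some genes of the list downstream of the mitochondria are not reported here, and no count over that list is given. Positions and promoter sequences came from RefSeq GRCm38.p6. The interval computation was tested on simulated data. Alternatives covered scaling, depth per barcode, square side, the share of squares, shared squares, blocks left out and the fold threshold. Python 3.11.15, numpy 2.4.6, scipy 1.17.1, pandas 2.3.3 and matplotlib 3.10.9 were used.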

Additional observations from a re-analysis of the deposited data

How the results depend on the processing

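Depth limits Bcl2, Bcl2l11, Bbc3 and Bid, whose counts in single kinds of square are often below 100, and 1 section per genotype limits every comparison. No paired analysis was possible because each genotype has 1 section, with no shared replicate number and no test. Over 15 alternative settings of the whole-section comparison the members at least 2-fold apart kept their sign and stayed past 2-fold: Bak1 between 1.10 and 1.46, Pmaip1 between 1.35 and 1.74, Bax between -1.66 and -1.30, Bcl2l11 between -1.74 and -1.38, and Bcl2 between -1.41 and -1.01, the last of these without 1 WT block. Bad stayed between 0.56 and 0.92, and Bbc3, Bid, Bcl2l1 and Mcl1 took either sign. With a 3-fold threshold, 0 members were higher and 0 lower. Scaling by the median of ratios moved all log2 ratios by 0.18, and leaving abundant marker genes out of the total moved them by -0.18; the higher share of calls over all genes was 54.7% and 34.4%, against 44.3% with total scaling. The anti-apoptotic over pro-apoptotic ratio was 0.953 in the KO-labelled section without muscle-rich and fat-rich squares, and without Mcl1 it was 0.170 in the KO-labelled section and 0.301 in the WT-labelled section. With the reduced total, an alternative chosen after seeing the data, 4 members and not 2 were lower in all 4 kinds of square, Bcl2 and Mcl1 being added, Mcl1 on a villus log2 ratio of -0.00033. Bcl2 was also added with the top 5% of squares, where Bbc3 joined the higher members, and with squares of more than 1 kind kept. Bid in stroma squares, on 42 KO and 9 WT counts, had a log2 ratio of KO over WT of 1.23, but -0.087 with squares of 10 units and -0.17 with the top 20% of squares. Against other WT squares Bid in stroma was at -1.03, but 0.24 with squares of 10 units and 0.088 with the top 20%, and the cause was not tested. A single cut over both sections left 0 KO crypt squares, 0 WT villus squares and 2 WT muscle squares, so it was run for stroma only.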
